A study of Mus musculus with 9 samples.

Results

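The genes described here are 35 genes of DNA replication and the cell cycle, chosen by name from the 56748 genes of a count table of mouse liver RNA. They comprise 9 genes of replication licensing, 3 replication fork and proliferation markers, 4 genes of nucleotide supply, 8 cyclins, 5 genes of cell cycle kinases and E2F1, and 6 genes of mitosis. All 35 were in the table, and 30 had enough reads to be tested. The libraries were made from poly(A) RNA of whole liver from 9 male mice of the C57BL/6J strain. All 9 ate a high-fat diet during 20 weeks, were 28 weeks old and were injected daily into the peritoneum for the last 4 weeks. Formoterol, an agonist of the beta-2 adrenergic receptor, was given at 1 mg/kg to 5 mice (libraries M46, M47, M48, M49 and M50), and its vehicle DMSO to 4 (libraries M56, M58, M59 and M60). The drug was given to the whole animal, both groups share the diet and the injections, and the table's columns were tied to their group by a suffix, so every direction below rests on reading that suffix as the formoterol or the DMSO group.

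Before S phase, the MCM2 to MCM7 helicase is loaded onto replication origins by CDC6 and CDT1, and geminin holds CDT1 back once an origin has fired. D-type cyclins with CDK4 or CDK6 release E2F transcription factors from the RB protein, and E2F drives genes of licensing, of nucleotide synthesis and of S phase. Genes of G2 phase and mitosis come later and carry another promoter element, the cell cycle genes homology region (CHR). Hepatocytes of an adult liver are mostly quiescent, so transcripts of dividing cells are rare in bulk liver RNA.

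Promoter sequence, from 250 bases before to 50 bases after the start of the gene, was given in the RefSeq table of build GRCm38.p6 for 27 of the 35 genes (29 promoters). Letters of the E2F element (TTTGGCGC, TTTCGCGC or TTCCCGCC, either strand) were found in 5 of the 8 licensing promoters (62.5%) and in 7 of the 29 promoters (24.1%), against 2.96% of the 32851 promoters in the table. CHR letters (TTTGAA, either strand) were found in 3 of 5 mitosis promoters and in 8 of 29 (27.6%), against 17.9% of all. CCAAT letters were found in 20 of 29 (69.0%), against 37.4% of all. The stretches below are shown because their genes are described further on, and capitals mark the E2F letters in Mcm6 (chr1:128359725-128359835, minus strand), Mcm5 (chr8:75109336-75109387, plus strand) and Cdk1 (chr10:69353016-69353063, minus strand) and the CHR letters in Mcm2 (chr6:88898825-88898870, minus strand) and Mki67 (chr7:135716452-135716515, minus strand). Runs of 12 capitals are overlapping matches on both strands. Cdk1 also holds CHR letters, beginning 71 and 15 bases before the start and outside the stretch shown. Mcm2 is the 1 licensing promoter of 8 (12.5%) with CHR letters. The Tk1 stretch (chr11:117826015-117826114, minus strand) holds none of the E2F or CHR letters searched and so no capitals.
Mcm6: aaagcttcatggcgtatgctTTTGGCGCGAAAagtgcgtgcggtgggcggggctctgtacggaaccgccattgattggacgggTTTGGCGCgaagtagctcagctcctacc
Mcm5: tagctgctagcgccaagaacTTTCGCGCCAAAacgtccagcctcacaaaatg
Cdk1: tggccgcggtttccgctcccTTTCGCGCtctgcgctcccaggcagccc
Mcm2: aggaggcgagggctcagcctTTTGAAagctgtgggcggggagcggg
Mki67: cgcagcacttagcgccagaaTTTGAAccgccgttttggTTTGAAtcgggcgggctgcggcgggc
Tk1: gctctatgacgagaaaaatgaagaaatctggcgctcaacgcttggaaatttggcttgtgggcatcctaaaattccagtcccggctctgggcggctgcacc
A match is a run of letters and not a site of binding, which was not measured.

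Libraries held 12336665 to 20339665 counts, and totals of the groups overlapped (two-sided exact permutation p = 0.81 over 126 splits). Hepatocyte markers were abundant, with albumin (Alb) at 85075 ± 13034.5 CPM (counts divided by library size after TMM scaling) in formoterol livers and 66918 ± 4634 CPM in vehicle livers (SD, n = 5 and 4). Of 13042 genes kept for testing, the edgeR quasi-likelihood test with Benjamini-Hochberg adjustment called 0 at an adjusted p under 0.05, and the smallest adjusted p was 0.136. At an unadjusted p under 0.05, 1899 genes differed, 721 lower and 1178 higher in formoterol livers. Formoterol library M49 lay apart from its group for some of the genes below, such as Ccnd1 and Tk1, and values without it follow. Each library was left out in turn, but M49 was singled out from these same values. Leaving it out narrows the formoterol spread of such genes by construction, so adjusted p-values without M49 describe and do not test. In bulk tissue, fewer cells of a type and less RNA per cell cannot be told apart.

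Genes of replication licensing, the D-type cyclins and the kinase Wee1 mostly had lower means in formoterol livers, nucleotide supply genes had means on both sides, and the thymidine kinase Tk1 had a higher one. Of the 30 genes tested, 25 had a negative log2 fold change (formoterol minus vehicle) and 5 a positive one, with a median of -0.53, against -0.01 over all genes kept. None passed the adjusted threshold by edgeR (smallest adjusted p = 0.188, for Mcm4), as 0% of all genes did. At an unadjusted p under 0.05, 7 genes were lower (Mcm2, Mcm3, Mcm4, Mcm5, Cdt1, Ccnd2 and Wee1), which is 23.3% of those tested against 5.53% of all genes kept, and 1 was higher (Tk1), which is 3.33% against 9.03%. A gene could be kept on its reads in the 4 vehicle libraries alone, as Mcm5, Cdt1 and Ccne1 were. This can raise the share that is lower. The genes were also chosen with earlier results of these data known. These shares therefore describe the genes kept, not all 35, and are no test of the set. The other tools differed: DESeq2 called Tk1 (adjusted p = 0.0114) but gave an adjusted p to only 14 of the 30, limma-voom called 0, and the quality-weighted form of limma-voom called 7, which were Mcm2, Mcm3, Mcm4, Cdt1, Ccnd1, Wee1 and Tk1 (adjusted p from 0.0119 to 0.0398), among 1374 genes in all.

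**Figure D1:**
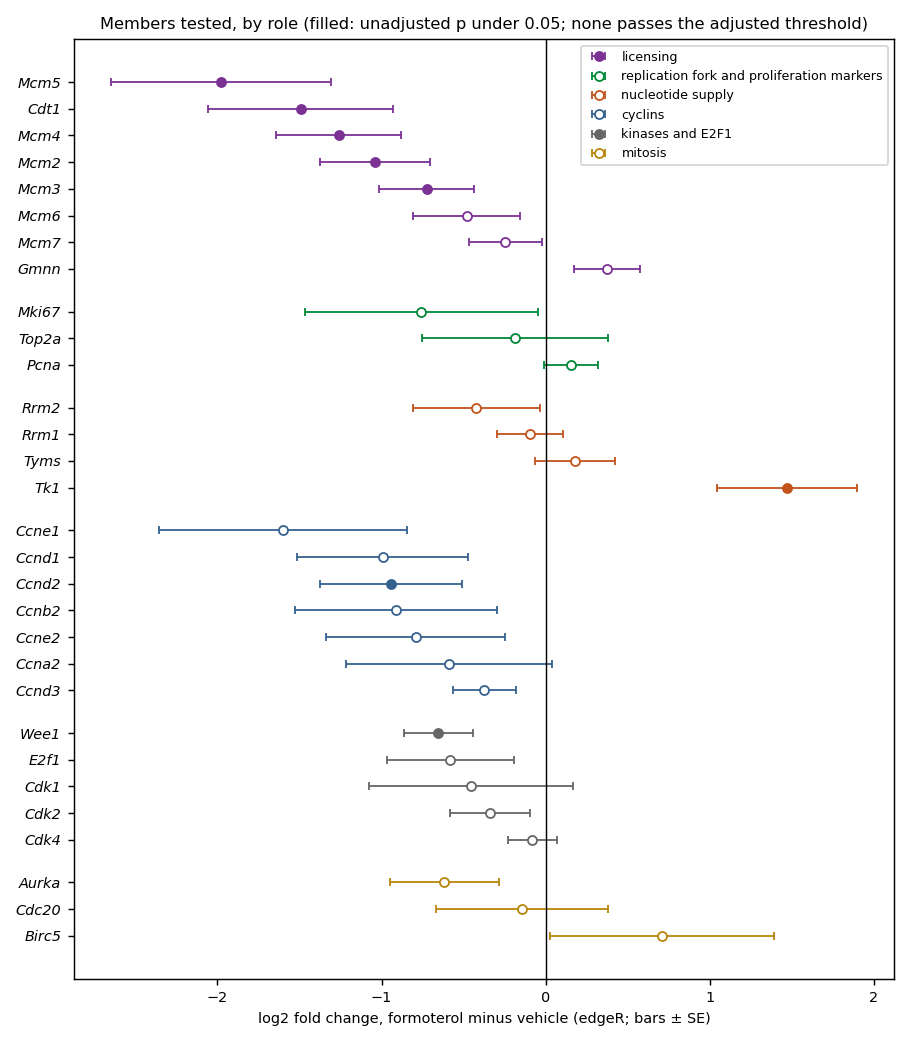
Log2 fold changes (formoterol minus vehicle, horizontal axis, points ± SE by edgeR) of the 30 genes tested, grouped by role down the page; filled points have an unadjusted p under 0.05. Of the 30 points, 25 lie left of 0, Mcm5 lies farthest left at -1.98 and Tk1 farthest right at 1.47.

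Among licensing genes, the median log2 fold change was -0.88 over the 8 tested. At an unadjusted p under 0.05, 5 of the 8 were lower, which is 62.5% against 5.53% of all genes kept. Of these 5, Mcm5 and Cdt1 were kept on their vehicle reads alone, which can raise the share that is lower. Mcm4, a helicase subunit (ENSMUSG00000022673, chromosome 16, 15441761 to 15455264 on mm39, the build of all gene positions below), had 0.651, 1.06, 1.04, 2.53 and 2.06 CPM in formoterol livers M46 to M50, against 3.55, 3.79, 3.08 and 3.96 CPM in vehicle livers M56, M58, M59 and M60. Every formoterol library lay below every vehicle library, and M49 was the highest of the formoterol group. It averaged 1.47 ± 0.791 CPM in formoterol livers and 3.59 ± 0.383 CPM in vehicle livers, a log2 fold change of -1.26 (SE 0.38, and adjusted p = 0.188 by edgeR). Without M49 it was -1.55 (adjusted p = 0.0285).

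Mcm2, another helicase subunit (ENSMUSG00000002870, chromosome 6, 88860456 to 88875762), had 1.22, 1.84, 1.69, 2.88 and 1.53 CPM in formoterol livers, against 4.31, 4.77, 3.86 and 2.32 CPM in vehicle livers. The groups met only where M49 exceeded vehicle library M60. Its log2 fold change was -1.04 (SE 0.33, and adjusted p = 0.195 by edgeR), and -1.27 without M49 (adjusted p = 0.0384). Mcm3 had 2.20, 2.84, 3.50, 5.51 and 4.18 CPM in formoterol livers and 5.94, 7.08, 7.18 and 4.12 CPM in vehicle livers (log2 fold change -0.72, SE 0.29, and adjusted p = 0.267 by edgeR). Here M49 and M50 lay above vehicle library M60, which was the lowest of its group as for Mcm2.

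The helicase subunit with the most negative estimate was Mcm5 (ENSMUSG00000005410, chromosome 8, 75836197 to 75855067), at 0.163, 0.0709, 0.584, 0.780 and 0.941 CPM in formoterol livers against 1.92, 4.53, 0.732 and 1.27 CPM in vehicle livers. Vehicle library M58 was far above the other 3, and M59 lay inside the formoterol range. Formoterol libraries M46 and M47 held only 2 and 1 counts, so the size of the change is imprecise. With all libraries the log2 fold change was -1.98 (SE 0.67, and adjusted p = 0.214 by edgeR), and without M58 it was -1.31 (SE 0.70, adjusted p = 0.460), no longer at an unadjusted p under 0.05. Mcm6 and Mcm7 were closer to their vehicle values: Mcm6 averaged 3.31 ± 1.48 CPM in formoterol livers and 4.67 ± 1.17 CPM in vehicle livers (log2 fold change -0.48, SE 0.32), and Mcm7 averaged 6.89 ± 1.39 CPM in formoterol livers and 8.22 ± 2.14 CPM in vehicle livers (-0.24, SE 0.22). Both overlapped between groups, with edgeR adjusted p of 0.522 and 0.653. The 6 subunits act as 1 ring, and all 6 estimates were negative, none of them past the adjusted threshold. Mcm7 shares 64 bp with Cops6 and 421 bp with Ap4m1, and reads there cannot be told apart without a stated strand setting.

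Cdt1, which loads the helicase (ENSMUSG00000006585, chromosome 8, 123294754 to 123300293), had 0.325, 0.0709, 0.778, 0.439 and 0.882 CPM in formoterol livers, against 1.16, 1.65, 1.42 and 1.53 CPM in vehicle livers. The groups did not overlap, and M49 lay in the middle of its own. The formoterol values rest on 4, 1, 12, 9 and 15 counts and are imprecise. For Cdt1 the log2 fold change was -1.49 (SE 0.56, and adjusted p = 0.243 by edgeR). Cdc6, its partner in loading, was too rare to test, with 3, 1, 0, 0 and 3 counts in formoterol livers and 1, 6, 9 and 10 counts in vehicle livers. A count of 0 allows up to 3 counts, so the low formoterol libraries cannot be ordered. Gmnn, which encodes geminin, the inhibitor of CDT1, ran the other way, with 14.9, 12.3, 16.8, 13.8 and 11.6 CPM in formoterol livers and 7.40, 10.2, 10.7 and 14.4 CPM in vehicle livers. The groups overlapped through vehicle library M60, and the log2 fold change of 0.37 (SE 0.20) had an edgeR adjusted p of 0.414.

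**Figure D2:**
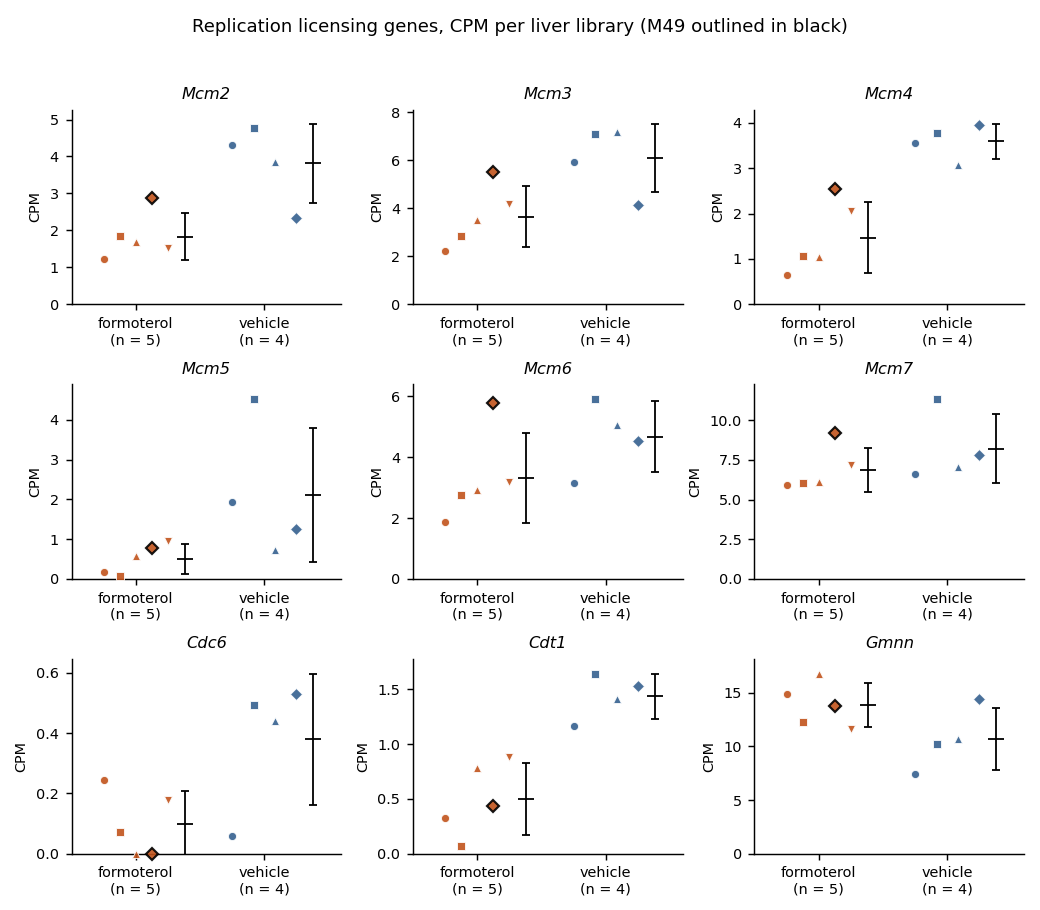
CPM (vertical axis, from 0) of the 9 licensing genes in each library, formoterol (orange) left of vehicle (blue), with the mean ± SD beside each group and M49 outlined in black. Mcm4 and Cdt1 do not overlap between groups, and Gmnn is the gene whose formoterol mean (13.9 CPM) lies above its vehicle mean (10.7 CPM).

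The replication fork and proliferation markers overlapped between groups. Pcna, the sliding clamp of DNA polymerases, had 28.0, 30.5, 20.6, 23.2 and 21.2 CPM in formoterol livers and 19.8, 20.0, 23.4 and 25.4 CPM in vehicle livers. Its log2 fold change was 0.15 (SE 0.16, and adjusted p = 0.707 by edgeR), and the groups overlapped widely. Per kilobase of gene model it stood at 10.3 CPM in formoterol livers and 9.23 CPM in vehicle livers. Mki67, the Ki-67 antigen of cycling cells, had 0.895, 1.42, 0.0648, 5.56 and 3.47 CPM in formoterol livers against 5.94, 3.37, 4.10 and 2.32 CPM in vehicle livers. The formoterol libraries were split, with M46, M47 and M48 below every vehicle library and M49 and M50 inside the vehicle range. The log2 fold change was -0.76 (SE 0.71, and adjusted p = 0.668 by edgeR), and -1.40 without M49. Top2a, the topoisomerase that untangles replicated DNA, had 0.284 to 3.02 CPM in formoterol livers and 0.815 to 2.06 CPM in vehicle livers, and M49 was the highest of all 9 (log2 fold change -0.19, SE 0.57).

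Of the 4 nucleotide supply genes only Tk1 had an unadjusted p under 0.05. Tk1, the thymidine kinase of the salvage pathway in S phase (ENSMUSG00000025574, chromosome 11, 117706352 to 117716918), had 25.0, 21.3, 38.1, 5.80 and 19.3 CPM in formoterol livers, against 5.18, 8.48, 7.67 and 10.2 CPM in vehicle livers. Formoterol libraries M46, M47, M48 and M50 lay above every vehicle library, while M49 lay inside the vehicle range. Tk1 had a log2 fold change of 1.47 (SE 0.43, and adjusted p = 0.191 by edgeR), and 1.72 without M49 (adjusted p = 0.00212). Afmid, on the opposite strand, overlaps Tk1 by 169 bp at their starts and averaged 16.2 ± 4.09 CPM in formoterol livers and 13.4 ± 3.48 CPM in vehicle livers (log2 fold change 0.29, SE 0.22). Gm20708, also on the opposite strand, overlaps Tk1 over 10567 bp, its whole span, and had 0 counts. Reads within these overlaps cannot be told apart.

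The large and small subunits of ribonucleotide reductase, which makes deoxyribonucleotides, did not follow Tk1. Rrm1 had 9.85, 9.36, 9.08, 8.33 and 7.82 CPM in formoterol livers and 6.99, 13.0, 8.54 and 9.56 CPM in vehicle livers (log2 fold change -0.10, SE 0.20). Rrm2 had 1.06, 2.41, 3.05, 4.53 and 1.35 CPM in formoterol livers and 3.26, 3.95, 2.93 and 3.33 CPM in vehicle livers (log2 fold change -0.42, SE 0.39). Tyms, thymidylate synthase of the other route to thymidine nucleotides, averaged 6.84 ± 1.87 CPM in formoterol livers and 6.02 ± 0.991 CPM in vehicle livers (log2 fold change 0.18, SE 0.24). All 3 overlapped between groups, and their edgeR adjusted p ranged from 0.654 to 0.866. In a wider list of 22 nucleotide metabolism genes, 15 of the 20 tested had a positive estimate (median 0.18). At an unadjusted p under 0.05, 1 was higher, which is 5% against 9.03% of all genes kept. That gene was Dtymk, which phosphorylates the product of TK1, at 13.3 ± 2.42 CPM in formoterol livers and 9.74 ± 0.952 CPM in vehicle livers (log2 fold change 0.45, SE 0.18, and adjusted p = 0.267 by edgeR). Its groups did not overlap, as for 2.45% of all genes kept that were higher without overlap.

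**Figure D3:**
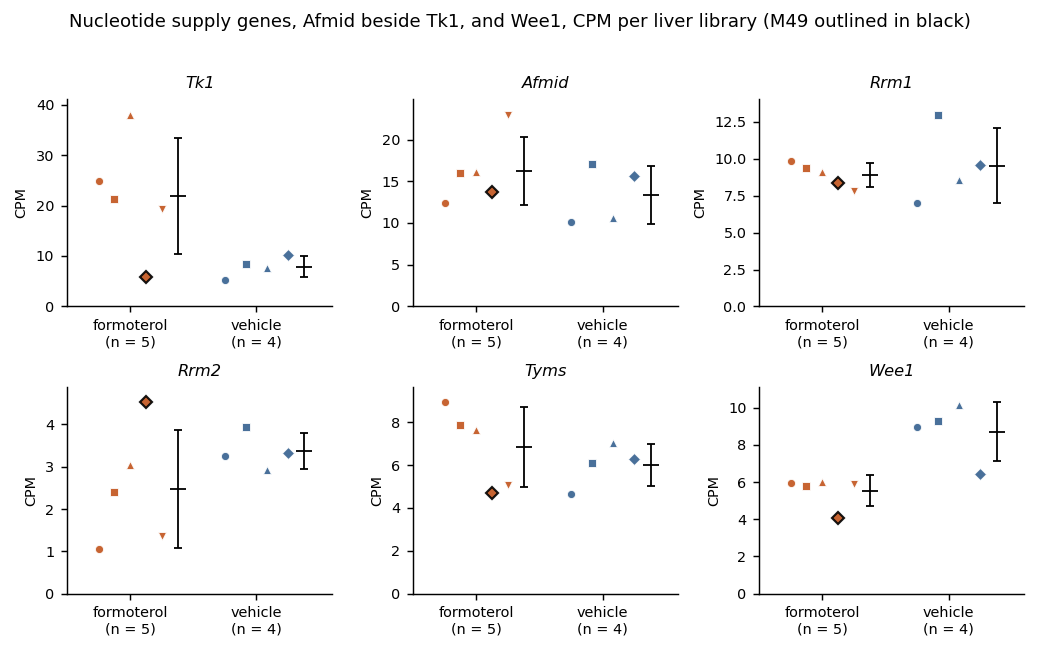
CPM (vertical axis, from 0) of Tk1, its neighbour Afmid, Rrm1, Rrm2, Tyms and Wee1 in each library, formoterol (orange) left of vehicle (blue), with the mean ± SD beside each group and M49 outlined in black. For Tk1, M49 (5.80 CPM) is the formoterol library among the vehicle values, and for Wee1 it is the lowest of the 9.

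All 7 cyclin genes tested had a negative estimate, as 51.3% of all genes kept did, with a median of -0.91. At an unadjusted p under 0.05, 1 (Ccnd2) was lower, which is 14.3% against 5.53% of all genes kept. Ccnd1, cyclin D1 of the G1 phase (ENSMUSG00000070348, chromosome 7, 144483668 to 144493662), had 0.976, 2.69, 2.14, 10.6 and 2.94 CPM in formoterol livers, against 7.80, 6.25, 7.47 and 9.93 CPM in vehicle livers. The other 4 formoterol libraries lay below every vehicle library and M49 above every one. The log2 fold change was -0.99 (SE 0.52, and adjusted p = 0.408 by edgeR) with M49 and -1.83 (adjusted p = 0.00520) without it. Ccnd2 had 0.570, 4.25, 1.69, 4.58 and 3.82 CPM in formoterol livers and 6.35, 5.02, 7.52 and 4.28 CPM in vehicle livers. M49 alone exceeded the lowest vehicle library, and the log2 fold change was -0.94 (SE 0.43, and adjusted p = 0.333 by edgeR), and -1.15 without M49. Ccnd3, the most abundant of the 3 per kilobase, averaged 20.2 ± 5.47 CPM in formoterol livers and 26.2 ± 2.63 CPM in vehicle livers (log2 fold change -0.37, SE 0.19, and adjusted p = 0.394 by edgeR), and again M49 was its highest formoterol library.

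Later cyclins were rarer, and M49 was below every vehicle library for Ccne1, Ccne2 and Ccna2. Ccne1, cyclin E1 of the G1 to S transition, had 5, 15, 2, 0 and 9 counts in formoterol livers and 11, 15, 29 and 34 counts in vehicle livers, which overlap (log2 fold change -1.60, SE 0.75, and adjusted p = 0.348 by edgeR). Ccne2 had 0.341 to 2.03 CPM in formoterol livers and 0.950 to 3.79 CPM in vehicle livers (log2 fold change -0.79, SE 0.55). Ccna2, cyclin A2 of S and G2 phase, had 0.976, 0.284, 0.778, 0.0975 and 1.59 CPM in formoterol livers, against 1.11, 1.23, 0.928 and 1.21 CPM in vehicle livers. M50 was above every vehicle library, and M49 was the lowest of all 9 at 2 counts, beside 4 in M47 (log2 fold change -0.59, SE 0.63, and adjusted p = 0.711 by edgeR). The mitotic cyclin Ccnb2 had a log2 fold change of -0.91 (SE 0.62), and Ccnb1 was too rare to test, at 0 to 0.471 CPM in formoterol livers and 0.0582 to 0.370 CPM in vehicle livers. Ccnd1, Ccnd3, Ccne2 and Ccna2 each overlap another gene on the genome (LTO1, Bysl, Ints8 and Exosc9), whose reads cannot be told apart there.

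Wee1, a kinase that restrains CDK1 before mitosis (ENSMUSG00000031016, chromosome 7, 109721253 to 109742493), had 5.94, 5.81, 6.03, 4.05 and 5.88 CPM in formoterol livers, against 8.97, 9.30, 10.2 and 6.44 CPM in vehicle livers. The groups did not overlap, and apart from M49 the formoterol libraries were within a narrow span. The log2 fold change was -0.66 (SE 0.21, and adjusted p = 0.195 by edgeR). The noncoding gene 1600010M07Rik, on the opposite strand, overlaps Wee1 over 21241 bp, its whole span. It had 27 counts over all libraries, and reads there cannot be told apart. The kinases of the cycle itself were closer to vehicle. Cdk4, the partner of D-type cyclins, had 24.7, 20.4, 26.7, 24.7 and 18.9 CPM in formoterol livers and 24.6, 27.6, 21.5 and 23.9 CPM in vehicle livers (log2 fold change -0.08, SE 0.15). It shares 641 bp with Tspan31, so its reads may include that gene's. Cdk2, which drives S phase, had a log2 fold change of -0.34 (SE 0.24), with vehicle library M58 at 14.9 CPM above all others. Cdk1, the kinase of mitosis, had 1.63, 0.567, 2.33, 0.0975 and 1.53 CPM in formoterol livers and 1.22, 1.56, 1.22 and 2.69 CPM in vehicle livers (log2 fold change -0.46, SE 0.62). M49 was the lowest at 2 counts, beside 8 in M47. E2f1, the transcription factor upstream of many of these genes, had 1.87, 0.992, 2.01, 1.22 and 1.00 CPM in formoterol livers and 1.92, 1.32, 2.49 and 2.69 CPM in vehicle livers. Its groups overlapped (log2 fold change -0.58, SE 0.39, and adjusted p = 0.517 by edgeR).

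Genes of mitosis were the rarest of the set, and 3 of 6 could be tested, with a median log2 fold change of -0.15. Aurka, the kinase of spindle poles, had 1.55, 1.56, 1.49, 1.51 and 2.53 CPM in formoterol livers and 2.85, 1.89, 3.47 and 2.38 CPM in vehicle livers. M50 alone entered the vehicle range (log2 fold change -0.62, SE 0.33, and adjusted p = 0.414 by edgeR). Birc5, survivin of the chromosomal passenger complex, had 0.244, 0.284, 0.519, 2.49 and 1.12 CPM in formoterol livers and 0.641, 0.329, 0.537 and 0.792 CPM in vehicle livers. Its log2 fold change of 0.71 (SE 0.68) was -0.07 without M49. Cdc20, an activator of the anaphase-promoting complex, had 0.284 to 0.843 CPM in formoterol livers and 0.408 to 0.976 CPM in vehicle livers (-0.15, SE 0.52). Aurkb, Bub1 and Plk1, which act on chromosomes and the spindle, were below 1 CPM in every library and were not tested, and M49 was the highest of all 9 for Aurkb (0.877 CPM) and Plk1 (0.780 CPM).

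**Figure D4:**
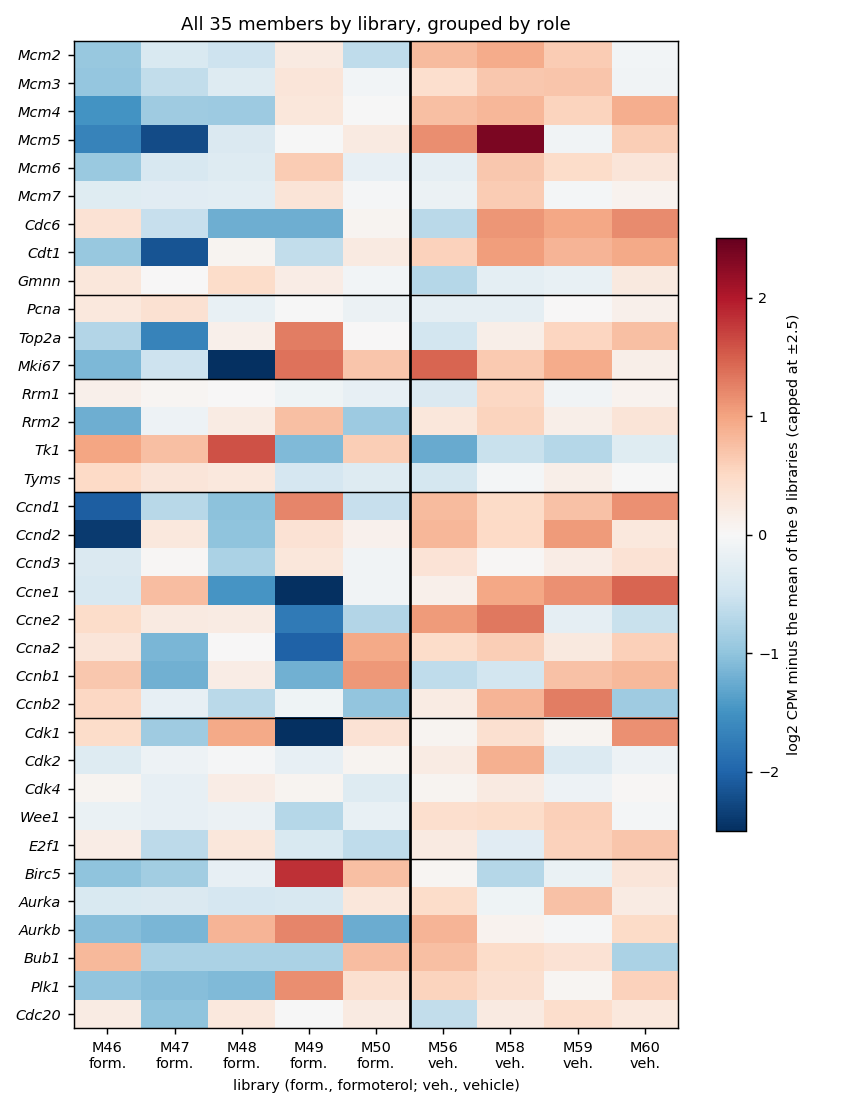
Log2 CPM (prior count 2) of all 35 genes minus the mean of the 9 libraries, capped at 2.5 either way, with genes down the page by role and formoterol libraries left of vehicle libraries. M49 is the highest formoterol library for Ccnd1 (10.6 CPM), Top2a, Birc5 and Plk1 and the lowest for Ccne1, Ccna2 and Cdk1 (0, 2 and 2 counts).

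The formoterol libraries varied among themselves. Of the 30 genes tested, M46 was below all vehicle libraries for 17, M47 for 21, M48 for 15, M49 for 9 and M50 for 13. As shares these were 56.7%, 70%, 50%, 30% and 43.3%, beside 36.6%, 26.8%, 34%, 23.1% and 23.3% of all genes kept in the same libraries. The shares for M49 are close to each other, and those for M47 are farthest apart. M49 was above all vehicle libraries for 4 of the 30 (Top2a, Rrm2, Ccnd1 and Birc5), which is 13.3%, beside 25.1% of all genes kept. The other formoterol libraries were above all vehicle libraries for 4 (M46), 3 (M47), 3 (M48) and 3 (M50) of the 30, beside 31.2%, 25.1%, 30.3% and 24.8% of all genes kept. Groups did not overlap for 3 of the genes tested, all lower in formoterol livers (Mcm4, Cdt1 and Wee1), beside 2.38% of all genes kept, and for 0 higher, beside 2.45%. Of the 3, Cdt1 was kept on its vehicle reads alone, which can raise the count that is lower. The count describes the genes kept and is no test. Without M49 the counts of genes without overlap were 7 lower and 1 higher, beside 6.64% and 7.63% of all genes. Then 4 genes passed the edgeR adjusted threshold (Mcm2, Mcm4, Ccnd1 and Tk1) among 722 in all. At an unadjusted p under 0.05, 11 were lower without M49, against 10.6% of all genes, and 4 without vehicle library M58, against 4.65% (Mcm2, Mcm4, Cdt1 and Wee1). Mcm2, Mcm4, Cdt1, Wee1 and Tk1 had an unadjusted p under 0.05 in all 16 alternatives run. These alternatives refit the same 9 libraries, and the share of all genes kept that did the same was not counted.

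The effect of leaving out M49 went both ways. Log2 fold changes without it were farther below 0 for Mcm3 (-0.92), Mcm5 (-2.17), Mcm6 (-0.79), Mcm7 (-0.37), Top2a (-0.79), Rrm2 (-0.76), Ccnd3 (-0.51), Ccnb2 (-0.95) and Cdk4 (-0.11). They were nearer to 0 for Cdt1 (-1.44), Wee1 (-0.56), Ccne1 (-1.25), Ccne2 (-0.53), Ccna2 (-0.29), Cdk1 (-0.14), Cdk2 (-0.32), E2f1 (-0.53), Aurka (-0.57), Cdc20 (-0.14) and Rrm1 (-0.07). Gmnn (0.38), Pcna (0.18) and Tyms (0.29) stayed above 0. None of these 23 genes passed the adjusted threshold by edgeR without M49, and the smallest adjusted p among them was 0.0654, for Mcm3.

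M49, the highest formoterol library for the D-type cyclins, was also the highest formoterol library for the summed markers of several other cell types, though not for every marker. Summed CPM of the 8 cyclins was 19.8 to 43.5 in formoterol livers and 41.6 to 47.9 in vehicle livers, with M49 the highest formoterol library. In M49 this sum was mostly Ccnd3 (27.3 CPM) and Ccnd1 (10.6 CPM), and M49 was the lowest formoterol library for Ccne1, Ccne2 and Ccna2. Summed endothelial markers ranged from 58.4 to 198 CPM in formoterol livers and from 150.1 to 188 in vehicle livers, and 9 of 10 had a negative estimate. Stellate and fibroblast markers ranged from 82.2 to 390 CPM in formoterol livers and from 246 to 411 CPM in vehicle livers, with 9 of 10 negative, and macrophage and monocyte markers from 58.1 to 152 CPM in formoterol livers and 116 to 178 CPM in vehicle livers, with 10 of 13 negative. For all 3 lists M46 was the lowest and M49 the highest formoterol library, and M49 lay inside the vehicle range for stellate and macrophage markers. Cholangiocyte markers ranged from 76.1 to 272 CPM in formoterol livers and from 90.6 to 207 CPM in vehicle livers, with 3 of 6 negative. B and plasma cell markers ranged from 15.6 to 72.0 CPM in formoterol livers and from 21.2 to 69.9 CPM in vehicle livers, with 2 of 7 negative. M49 was the highest of all 9 libraries for both of these lists and for endothelial markers. Spp1 made up most of the cholangiocyte sum in M49 (238 of 272 CPM). Hepatocyte markers were at 101264 to 143238 CPM in formoterol livers and 85822 to 99685 CPM in vehicle livers, and 7 of 8 had a positive estimate. Erythroid markers (3 of 5 negative) were also highest in M49 among formoterol livers (550 CPM), while T and NK cell markers were not (2.92 CPM in M49, 3.53 CPM in M50). Neutrophil markers reached 2.08 CPM in formoterol livers and 4.14 CPM in vehicle livers, with Ly6g and Mpo at 0 in every library. Their sum was lowest of all 9 in M49 (1.12 CPM). Some single markers differed from their sums in M49. Cdh5 (6.34 CPM) lay below every vehicle library, Adgre1 (0.195 CPM) was the lowest of all 9, and Jchain (1.85 CPM) was the lowest formoterol value. The part of these cells in the cell cycle values was not tested.

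**Figure D5:**
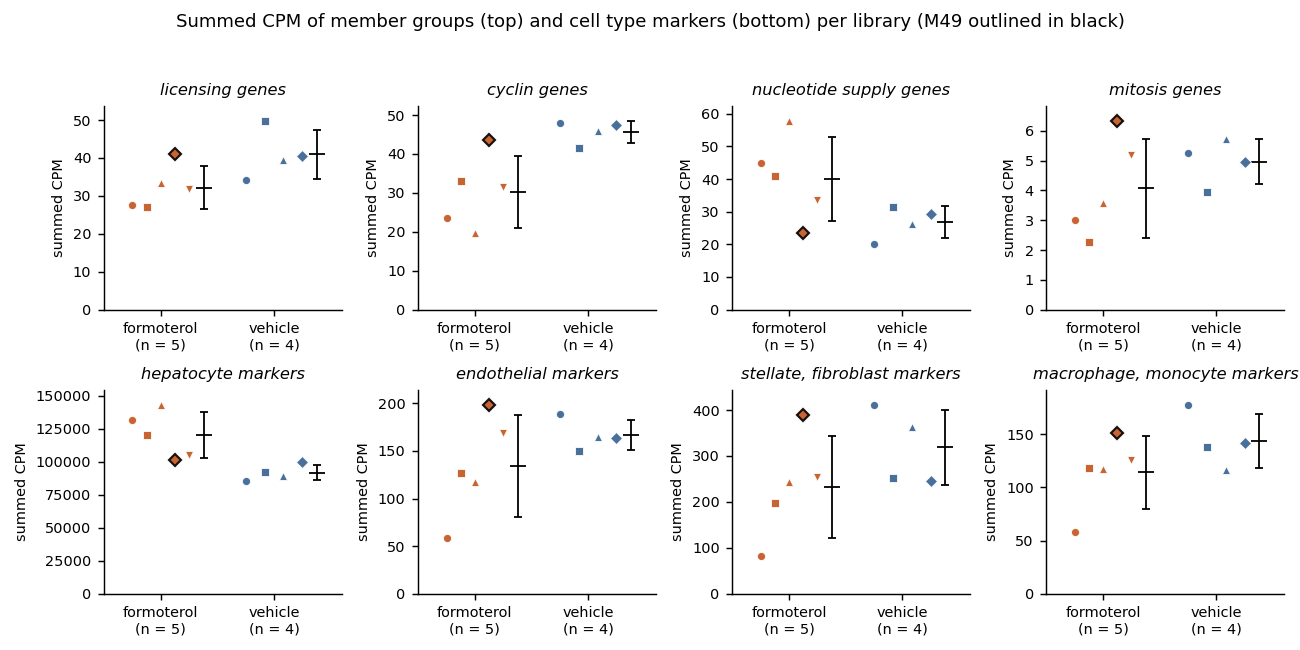
Summed CPM (vertical axis, from 0) of 4 groups of the genes (top) and of 4 lists of cell type markers (bottom) in each library, formoterol (orange) left of vehicle (blue), with the mean ± SD beside each group and M49 outlined in black. M49 is the highest formoterol library for cyclins (43.5) and for endothelial (198), stellate and macrophage markers, and the lowest for nucleotide supply genes (23.3) and hepatocyte markers (101264).

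Other genes of the pathway, taken from 5 lists of 142 names, were split about evenly. Of the 104 tested, 49 had a negative and 55 a positive estimate, with a median of 0.02, and at an unadjusted p under 0.05 there were 4 lower and 4 higher genes (3.85% each, against 5.53% and 9.03% of all genes kept). In the replication machinery list of 48, 22 of the 39 tested had a positive estimate (median 0.07). Topbp1, which activates origins, averaged 5.16 ± 1.61 CPM in formoterol livers and 8.08 ± 0.800 CPM in vehicle livers (log2 fold change -0.64, SE 0.24, and adjusted p = 0.246 by edgeR). Rnaseh2a, a subunit of ribonuclease H2, averaged 15.9 ± 3.29 CPM in formoterol livers and 10.7 ± 1.85 CPM in vehicle livers (0.57, SE 0.20, and adjusted p = 0.218 by edgeR).

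On the RB and E2F axis, 13 of the 21 genes tested had a positive estimate (median 0.11). Cdk6, the other kinase of D-type cyclins, averaged 11.0 ± 3.07 CPM in formoterol livers and 19.0 ± 3.47 CPM in vehicle livers without overlap (log2 fold change -0.79, SE 0.22, edgeR adjusted p = 0.173, and 0.0362 without M49). Cks2, a CDK-binding subunit, had a log2 fold change of 0.52 (SE 0.21). Among 8 CDK inhibitors, 3 of the 5 tested had a positive estimate, with a median of 0.26. These were Cdkn1b (0.26, SE 0.24), Cdkn1c (0.60, SE 0.36) and Cdkn2d (0.38, SE 0.36), none with an unadjusted p under 0.05. Cdkn1a, which encodes p21 and blocks CDK2, had 2, 0, 2, 22 and 3 counts in formoterol livers and 42, 24, 46 and 26 counts in vehicle livers. Every formoterol library lay below every vehicle library, as for 2.38% of all genes kept, with M49 nearest (log2 fold change -2.58, SE 0.72, and adjusted p = 0.173 by edgeR). Without M49 the log2 fold change was -4.00 (adjusted p = 0.00328 by edgeR). Cdkn1a was kept for testing on its vehicle reads alone. The formoterol libraries other than M49 held 0 to 3 counts, so the size of the change is imprecise. Of the 19 other mitosis genes tested, 17 had a negative estimate, 0 of them with an unadjusted p under 0.05, and the median was -0.18.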

How the data were processed

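The deposited values are raw counts of reads for each Ensembl gene, as whole numbers and without normalization, in 1 table. Reads were aligned with HISAT2 2.0.5 to mm39, per the submitters' processing notes, which also list DESeq2 without a version. No source used here gives the counting program or its strand setting, so reads in bases that overlapping genes share cannot be told apart. Of the 35 genes, 17 overlap another gene, and 8 overlap a gene with over 100 counts across the libraries. Columns were assigned by their suffix, HF read as formoterol and HD as vehicle, in keeping with the 5 and 4 mice of the design text. They carry no replicate number, and a library was treated as a separate mouse. Where that is not so, p-values cover only technical spread. Replicate pairs differed beyond counting noise (chi-square per degree of freedom 21.8 to 208 over 16 pairs).

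From the counts, genes were kept with filterByExpr (minimum count 10, minimum total 15), scaled with TMM factors and tested with edgeR 4.0.16 (robust quasi-likelihood, R 4.3.3), with Benjamini-Hochberg adjustment over 13042 genes and a threshold of 0.05. The genes kept held at least 99.8% of the counts of each library. Rare genes at a few counts are imprecise, and all 9 libraries are few. Alternatives were other scalings, no filter, DESeq2 1.42.0, limma 3.58.1 voom and each library left out. The tests were also run on simulated counts, which held no outlying library such as M49 and so do not check the results against one. The genes and lists were chosen with earlier results of these data known. Named beyond the 35 are genes overlapping or starting within 1000 bases of one, up to 4 per pathway list by smallest p, Cdkn1a and cell type markers. Promoters are RefSeq, build GRCm38.p6, and their coordinates are not those of the table.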

Additional observations from a re-analysis of the deposited data

Results flagged for a closer look

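Over 70 groups of libraries examined (35 genes in each treatment), 4 held a library whose gap to its nearest neighbour was a large share of the group's range (above Dixon's limit), and chance alone gives about 1 in 20. Ccnd1 in formoterol library M49 was 10.6 CPM, with the next highest formoterol library at 2.94 CPM. Wee1 in M49 was 4.05 CPM, below the next lowest at 5.81 CPM. Aurka in formoterol library M50 was 2.53 CPM, above the next highest at 1.56 CPM. Cdc20 in formoterol library M47 was 0.284 CPM, below the next lowest at 0.682 CPM, at 4 counts. No vehicle library was marked for any of the 35 genes.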

How the results depend on the processing

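The genes called at the adjusted threshold numbered 0 by edgeR, 263 with no filter on low counts, 306 by DESeq2, 1374 by limma-voom with quality weights, and 0 to 722 with 1 library left out (722 without M49, 1 without M60). Members of the set called were 0 by edgeR, 1 by DESeq2, 7 with quality weights and 0 to 4 with 1 library left out (4 without M49). Those lower at an unadjusted p under 0.05 were 7 by edgeR, 14 with quality weights (where 14.1% of all genes were lower at that p, against 5.53% by edgeR) and 4 to 11 with 1 library left out, and those higher were 1, with 1 to 2 (2 without M60, where Gmnn was added). The median of the set was -0.53, -0.71 with library totals only, which moved the median of all genes to -0.16, -0.72 with quality weights, and -0.58 to -0.43 with 1 library left out. Counts at an unadjusted p under 0.05 in the pathway lists without M49, an alternative chosen after seeing the data, were 4 lower and 3 higher for replication machinery and 1 lower and 2 higher for other nucleotide genes, where 10.6% of all genes were lower and 12.5% higher. The sign turned for the nucleotide supply median (-0.0018 with upper-quartile factors, -0.11 with library totals). It also turned for Rrm1 (0.015) and Birc5 (-0.32) with quality weights. With 1 library left out the signs also turned, over ranges of -0.072 to 0.13 for the nucleotide supply median, -0.79 to 0.050 for Top2a and the median of the replication fork and proliferation markers, -0.35 to 0.039 for Cdc20 and the mitosis median, -0.22 to 0.085 for Rrm1 and -0.072 to 0.92 for Birc5. Among alternative values of single genes, 460 kept their direction and side of the adjusted threshold, 12 newly passed it and 8 turned sign; the cause was not tested. No paired analysis was possible because the columns carry no replicate number. Depth limits Cdc6, Ccnb1, Aurkb, Bub1 and Plk1, at a few counts each.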
